A study of Mus musculus with 29 samples.

Results

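The genes near Atoh1 binding were compared between embryoid bodies (EBs) that expressed Atoh1 alone and EBs that expressed Atoh1 together with Gfi1 and Pou4f3. Every Atoh1 ChIP-seq summit that the authors kept, 15568 in the iAtoh1 line and 26231 in the iGPA line, was assigned to the nearest annotated transcription start site (TSS), and the peaks of each gene were counted. Of 37273 annotated genes, 14266 had at least 1 of these peaks. The series holds 9 such peak lists with 175162 peaks in all, and 22691 genes had a peak in at least 1 of them.

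Both lines were made in A2Lox mouse embryonic stem cells (ESCs), in which a cassette is recombined into a doxycycline-inducible locus. The iAtoh1 cassette carried Atoh1 with a FLAG tag at its C-terminus followed by nuclear mVenus. The iGPA cassette carried Gfi1, Pou4f3 with a MYC tag at its N-terminus, and the same FLAG-tagged Atoh1 and mVenus, joined by self-cleaving 2A peptides, so that all 3 factors came from a single transcript. EBs of both lines received 2 µg/ml doxycycline for 48 h and were fixed on day 6. The lines iG+A (Gfi1 and Atoh1), iP+A (Pou4f3 and Atoh1), iPou4f3 and iG+P (Gfi1 and Pou4f3) were treated alike and are used below only as further peak lists. According to the series description, the 2 replicates of a line came from different clones. The authors called each Atoh1 list on the 2 replicates merged, against merged input, so each line is represented by 1 list. No difference between the lines therefore has a replicate check, no test between them was possible, and the intervals below are exact Clopper-Pearson intervals at 95% that cover counting error only. The read depth behind each list was not given in the files used here.

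Atoh1 is a basic helix-loop-helix (bHLH) transcription factor that is needed for the formation of the mechanosensory hair cells (HCs) of the inner ear and for several neuronal lineages. It binds E-boxes, CANNTG, as a dimer with an E protein. Pou4f3, a POU homeodomain factor, and Gfi1, a zinc finger repressor, act in HCs and are needed for their survival. Nearest-gene assignment is a convention: a site may act on another gene, and a gene surrounded by a long stretch without other starts collects more sites.

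The sequences at the strongest peaks of genes that the results turn on are shown first, as examples. They were chosen by strength and centred on a hexamer where there was one, so they do not show a typical site of a class. Each is 66 bases of the plus strand of mm9 around the CAGCTG or CAGATG nearest the summit, with these hexamers in capitals. Other CANNTG hexamers were neither searched nor marked. The hexamer CAGCTG reads the same on both strands. The hexamer CAGATG also appears as its reverse complement, and both hexamers were searched on both strands. Where no such hexamer lay within 125 bp of the summit, the bases around the summit are shown. At Mfsd7c the hexamer shown lay just outside the called peak, which ended at 87074308.

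Strongest iGPA peaks at genes with many more iGPA than iAtoh1 peaks:
Gse1 (chr8:122931832-122931897): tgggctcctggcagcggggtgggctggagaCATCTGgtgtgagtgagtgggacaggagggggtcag
Slit1 (chr19:41772070-41772135): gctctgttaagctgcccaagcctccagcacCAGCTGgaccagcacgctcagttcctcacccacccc
Micall2 (chr5:140135427-140135492): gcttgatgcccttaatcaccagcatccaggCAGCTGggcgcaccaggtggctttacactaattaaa
Cbfa2t3 (chr8:125164041-125164106): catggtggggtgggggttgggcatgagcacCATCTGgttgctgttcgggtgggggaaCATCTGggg

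Strongest iGPA peaks at HC, neuronal and bHLH-related genes:
Cdh23 (chr10:59927158-59927223): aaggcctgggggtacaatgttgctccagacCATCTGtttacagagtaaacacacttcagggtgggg
Id2 (chr12:25783565-25783630): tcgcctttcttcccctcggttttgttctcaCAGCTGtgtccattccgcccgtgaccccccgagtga
Nhlh1 (chr1:173987895-173987960): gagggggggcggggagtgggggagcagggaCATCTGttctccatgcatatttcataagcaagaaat
Elavl4 (chr4:109825259-109825324): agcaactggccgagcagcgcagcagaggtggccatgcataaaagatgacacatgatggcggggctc
Olig3 (chr10:18997067-18997132): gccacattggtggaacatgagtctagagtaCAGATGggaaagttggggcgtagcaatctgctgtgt

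Peaks of high fold enrichment in each class, and an iAtoh1 peak at a multi-copy gene with far fewer peaks in iGPA:
Dnahc2 (both lines, chr11:69273552-69273617): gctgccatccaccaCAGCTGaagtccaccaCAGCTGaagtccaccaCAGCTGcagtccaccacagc
Kcnk16 (iGPA only, chr14:21063691-21063756): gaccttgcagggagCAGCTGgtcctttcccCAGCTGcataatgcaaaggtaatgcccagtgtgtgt
Mfsd7c (iAtoh1 only, chr12:87074341-87074406): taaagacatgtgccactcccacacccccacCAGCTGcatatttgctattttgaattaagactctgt
Naip6 (iAtoh1, chr13:101091250-101091315): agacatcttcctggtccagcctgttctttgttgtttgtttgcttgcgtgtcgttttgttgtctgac

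The bases shown at Slit1, Cdh23, Cbfa2t3 and Dnahc2 lay within these genes and overlapped no annotated exon. Those at Cbfa2t3 also lay within the gene model Gm20388, as did those at Gse1, which overlapped no exon and were 80.9 kb upstream of the nearest Gse1 start. The Nhlh1 peak lay 236 bp upstream of a start and the Id2 peak 2680 bp upstream, both outside annotated genes. The peaks at Micall2, Elavl4, Olig3, Kcnk16, Mfsd7c and Naip6 were intergenic, at 50.7, 70.5, 79.2, 24.7, 13.2 and 3.65 kb from the nearest start. The windows at Elavl4 and Naip6 held neither hexamer. At Nhlh1 the site was present in both lines, with a fold enrichment of 3.05 in iAtoh1 and 40.9 in iGPA. The shared sites at Gse1, Slit1, Cbfa2t3, Id2 and Dnahc2 had fold enrichments of 8.8, 4.76, 8.67, 5.62 and 43.9 in iAtoh1 against 18.9, 7.14, 21.8, 8 and 72.1 in iGPA. A Pou4f3 peak of iGPA overlapped the sites at Cdh23, Nhlh1, Elavl4, Dnahc2 and Kcnk16. Fold enrichment is the authors' ratio of ChIP to input within a list, and a difference in it between lists may come from the libraries as well as from binding.

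Genes with Atoh1 peaks in both lines and genes with iGPA peaks only were about equally many, and genes with iAtoh1 peaks only were few. Peaks were present in both lines at 6456 genes (17.3% of all annotated genes), in iGPA only at 6462 genes (17.3%) and in iAtoh1 only at 1348 genes (3.62%). Among the 22367 protein-coding genes the same classes held 4875 (21.8%), 4651 (20.8%) and 792 genes (3.54%). A single peak defined most of the genes with peaks in 1 line: 87.6% of the iAtoh1-only genes and 72.3% of the iGPA-only genes had 1 peak. Genes with peaks in both lines had a median of 60.3 kb of sequence nearest to their starts (called their territory here), against 47.8 kb for iAtoh1-only genes, 45.5 kb for iGPA-only genes and 23.6 kb for genes with no peak.

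The balance between the classes moved with the length of the lists. When the iGPA list was shortened to its 15568 strongest peaks by −log10 p, the iAtoh1-only class held 2274 genes and the iGPA-only class 3853, and 5530 genes had peaks in both lines. When, besides, the peak-dense windows described below were left out, the iAtoh1-only and iGPA-only classes held 2662 and 2700 genes. The iGPA-only class was thus still the larger at equal list length, and the classes were about equal in size when both changes were made.

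Most genes with an iAtoh1 peak kept a peak at the same place in iGPA. Of 7804 such genes, 4120 (52.8%) had every iAtoh1 peak overlapped by an iGPA peak (300 bp windows around the summits, at least 1 bp shared) and 1369 (17.5%) had some of them overlapped. A further 986 genes (12.6%) had iGPA peaks only at other places of the same gene, and 1329 (17%) had no iGPA peak at all. At 19 of the genes with an overlapped iAtoh1 peak, the overlapping iGPA summit lay nearer to a neighbouring gene, and no iGPA peak was assigned to the gene itself. Seen from the genes with peaks in both lines, 5470 of 6456 (84.7%) had a shared site, and 3096 (48%) had a shared site and at least 1 further iGPA peak.

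The iGPA peaks that had no counterpart in iAtoh1 were divided almost evenly between genes that Atoh1 alone already marked and genes that it did not. Of 18037 unshared iGPA peaks, 8948 (49.6%, interval 48.9 to 50.3) were at genes with an iAtoh1 peak and 9089 (50.4%) at genes without one. Of the unshared iAtoh1 peaks, 5814 of 7378 (78.8%) were at genes with an iGPA peak, but 3149 of these 5814 lay in the peak-dense windows described below. Outside those windows, 2665 unshared iAtoh1 peaks were at genes with an iGPA peak and 1437 at iAtoh1-only genes. The unshared iGPA peaks outside them were 7337 at genes with an iAtoh1 peak and 9014 at iGPA-only genes. The iGPA list was also the longer, so more genes had an iGPA peak than an iAtoh1 peak. In all, 9113 iGPA peaks (34.7%) were at iGPA-only genes and 1583 iAtoh1 peaks (10.2%) at iAtoh1-only genes.

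Peaks at iGPA-only genes lay nearer to the TSS than other peaks. Their median distance was 4.98 kb and 34.8% (interval 33.8 to 35.7) lay within 1 kb, against 11.1 kb and 18.9% (18.1 to 19.7) for the unshared iGPA peaks at genes with peaks in both lines and 6.97 kb and 27.6% (26.7 to 28.6) for the shared ones. Peaks at iAtoh1-only genes had a median distance of 8.8 kb, with 21.7% within 1 kb (19.7 to 23.8). A shorter territory limits the distance to a start. The median territory was 45.5 kb at iGPA-only genes, 60.3 kb at genes with peaks in both lines and 47.8 kb at iAtoh1-only genes. How far this bears on the distances was not tested. The number of genes with a peak within 1 kb of a start was 2834 in iAtoh1 and 5827 in iGPA. Of these, 2236 were marked in both lines, 598 in iAtoh1 only and 3591 in iGPA only, and 793 of the latter (22.1%) had an iAtoh1 peak farther away. By fold enrichment, shared sites stood above the rest in each list. In iGPA the median was 4.31 at shared sites of genes with peaks in both lines, 3.31 at their unshared sites and 3.32 at iGPA-only genes. In iAtoh1 the corresponding medians were 3.42 at shared sites, 3.05 at unshared sites and 2.93 at iAtoh1-only genes.

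Counting peaks per gene, 1182 genes (3.17%) had at least 3 more peaks in iGPA than in iAtoh1 (called a gain), and 335 genes (0.899%) had at least 3 fewer (a loss). The protein-coding genes among them were 952 (4.26%) and 195 (0.872%). The gaining genes held 1345 iAtoh1 and 5996 iGPA peaks. Of them, 649 had an iAtoh1 peak and 533 had none. Their territories were long, with a median of 121 kb. At equal list length the counts were 376 gaining and 516 losing genes, and without the peak-dense windows as well they were 157 and 210, so the larger number of gaining genes was lost at equal list length.

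Gse1, which encodes a subunit of a histone deacetylase complex, had the largest gain of any protein-coding gene. It lies on the plus strand of chromosome 8 (mm9, 123012766 to 123105290). It had 17 peaks in iAtoh1, 23 in the iG+A list, 24 in the iP+A list and 36 in the iGPA list, over a territory of 246 kb. Fam92b, upstream of it on chromosome 8, had 18, 20, 16 and 29 peaks. Cxxc5, a CXXC zinc finger gene, had 10, 18, 15 and 22 peaks in the same order. At these loci most of the iAtoh1 peaks were kept, 16 of 17 at Gse1, 15 of 18 at Fam92b and 7 of 10 at Cxxc5. Where the additional iGPA peaks lay relative to the kept ones was not examined.

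Among signalling genes, Slit1, a ligand of the Robo axon guidance receptors, had 3, 5, 6 and 14 peaks, and all 3 of the iAtoh1 peaks were kept. Gli2, a transcription factor of the Hedgehog pathway, had 8, 7, 12 and 18 peaks. Maml3, a coactivator of Notch signalling, had 4, 9, 7 and 14, and Tiam1, a Rac exchange factor, had 2, 7, 5 and 12. None of these genes reached its iGPA count in either of the 2-factor lists.

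Cbfa2t3, a corepressor of the ETO family that is recruited by E proteins, had 10, 14, 12 and 19 peaks. Camta1, a calmodulin-binding transcription activator, had 3, 9, 6 and 15 peaks, over the longest territory of the 12 genes with the largest gain (666 kb). Ahdc1, an AT-hook gene, had 4, 5, 9 and 14, of which 6 iGPA peaks lay within 1 kb of a start. The cadherin gene Cdh26 had 1, 3, 2 and 12 peaks. Micall2 was the gene with no iAtoh1 peak that had most iGPA peaks, with 0, 1, 4 and 11. These 12 genes were chosen for the distance between the iAtoh1 and iGPA counts, so the place of the other lists between them is a description only. None of the 12 had a peak in a peak-dense window. At equal list length 11 of the 12 still had more iGPA peaks (differences of 2 to 11), whereas Fam92b had the same number in both lists. With a minimum −log10 p of 10 their gains were 1 (Tiam1) to 17 (Gse1), and within 5 kb of a start they were 0 to 6, with 1 at Gse1 and 0 at Micall2. Within 100 kb of a start the gain was 2 at Cdh26 and 4 at Fam92b, and 7 (Gli2) to 14 (Gse1) at the others.

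**Figure D1:**
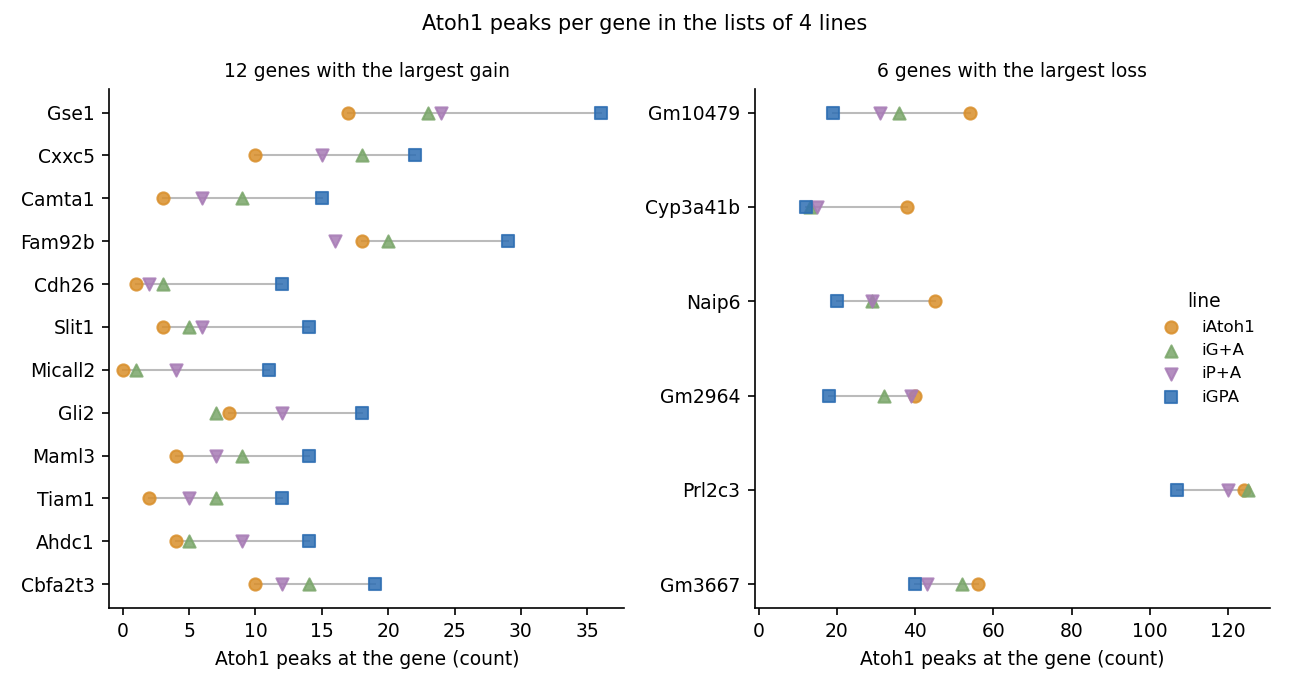
Points give the number of Atoh1 peaks (x axis, count) at the 12 protein-coding genes with the largest gain (left) and the 6 with the largest loss (right) in the lists of 4 lines, and grey lines join iAtoh1 and iGPA. At the gaining genes iGPA is highest throughout, for example 36 peaks at Gse1 against 17 in iAtoh1. At the losing genes iAtoh1 exceeds iGPA, for example 54 against 19 at Gm10479.

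The genes with the largest losses were of another kind. Cyp3a41b, Naip6 and Prl2c3 belong to multi-copy families. The 6 genes had 37 to 115 Pou4f3 peaks in iG+P, against 2 to 13 at the 12 genes with the largest gain. The spacing of iGPA Atoh1 peaks did not separate them, with 4.11 to 70.6 peaks per 100 kb of territory against 2.25 to 24.3. The gene model Gm10479 had 54, 36, 31 and 19 Atoh1 peaks in the same order of lists. It also had 63 Pou4f3 peaks in iG+P, a line that carries no Atoh1 transgene. Cyp3a41b, a cytochrome P450 gene, had 38, 13, 15 and 12 Atoh1 peaks and 37 Pou4f3 peaks in iG+P. Naip6, of the NLR family of apoptosis inhibitory proteins, had 45, 29, 29 and 20 and 48 in iG+P. Thus iG+P had about as many peaks at these genes as iAtoh1, or more. Gm2964 had 40, 32, 39 and 18 and 44 in iG+P. Gm3667 had 56, 52, 43 and 40 and 58 in iG+P. Prl2c3, of the prolactin family, had 124, 125, 120 and 107 and 115 in iG+P, within a territory of 152 kb. How reads were divided among near-identical copies was not tested, and the peak counts at these genes are given as uncertain.

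To describe such regions without the lists under comparison, 100 kb windows with at least 10 Pou4f3 peaks of iG+P were called peak-dense. This definition was chosen after the data had been seen. There were 215 such windows, 21.5 Mb in all, and they held 4712 iAtoh1 peaks (30.3%), 4268 iG+A peaks (20.8%), 3886 iP+A peaks (20.5%) and 3120 iGPA peaks (11.9%). Of the other Pou4f3 lists, that of iP+A had 16.5% of its peaks there, and those of iPou4f3 and iGPA had 6.31% and 4.35%. The Gfi1 list had 11.4%. In the window with most iAtoh1 peaks, next to Prl2c3 on chromosome 13, the 4 Atoh1 lists held 97, 100, 90 and 89 peaks. Of the 335 losing genes, 255 had an iAtoh1 peak in a dense window, and these windows held 86.8% of the iAtoh1 peaks of the losing genes. By chromosome, 95 losing genes were on chromosome 14, 55 on chromosome 4 and 33 on chromosome 7. Of the 1182 gaining genes, 25 had any peak in a dense window. Without the dense windows 89 genes lost and 1162 gained at least 3 peaks. The differences at the genes with the largest losses were then -5 at Gm10479, -1 at Gm2964 and 0 at Cyp3a41b, Naip6, Prl2c3 and Gm3667.

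E-box hexamers also separated the dense windows from the rest. Outside them, CAGCTG or CAGATG lay within 125 bp of 74.2% of the iAtoh1 summits (interval 73.4 to 75) and 78.4% of the iGPA summits (77.9 to 78.9), against 28.5% and 28.6% in equally long flanks 1000 bp away. Inside them the share was 27.2% for iAtoh1 (26 to 28.5) with 25.1% in the flanks, and 32% for iGPA (30.4 to 33.7) with 26.2%. Whether the peaks of the dense windows come from Atoh1 binding was not tested.

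The same hexamers were read at the gene classes, outside the dense windows. Shared sites at genes with peaks in both lines carried one in 86.8% of the iAtoh1 peaks. Unshared iGPA peaks carried one in 76.5% (75.5 to 77.5) at genes with an iAtoh1 peak and in 73.6% (72.7 to 74.5) at iGPA-only genes, and the difference of these from their flanks was about the same, 46.5 and 46.6 percentage points. Unshared iAtoh1 peaks carried one in 56.1% (54.2 to 58) and peaks at iAtoh1-only genes in 49.2% (46.6 to 51.8), 28.8 and 22.7 points above their flanks. New iGPA sites thus held these hexamers more often than the iAtoh1 sites that had no iGPA counterpart, at genes of either class. At the level of genes, 77.5% of the iGPA-only genes had an iGPA peak with a hexamer, and 52% of the iAtoh1-only genes had an iAtoh1 peak with one.

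**Figure D2:**
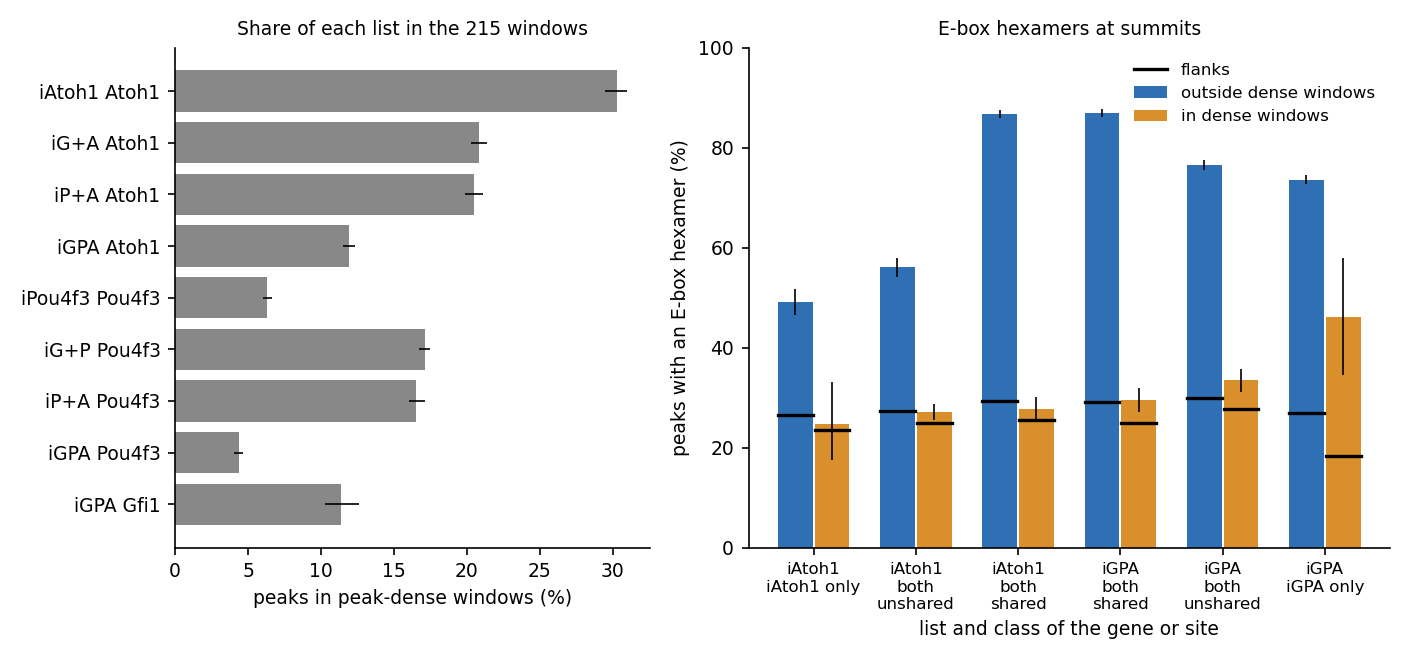
Left, bars give the share (%) of each of the 9 lists in the 215 peak-dense windows. Right, bars give the share (%) of summits with CAGCTG or CAGATG within 125 bp, outside (blue) and inside (orange) those windows, by list and class, and black lines give the share in flanks 1000 bp away. Error bars are exact 95% intervals. Blue bars exceed their flanks in every class, from 49.2% at iAtoh1-only genes to 86.9% at shared iGPA sites, and orange bars lie near their flanks except at iGPA-only genes, where there are 76 peaks.

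The other 7 peak lists, which the classes did not use, showed where else these genes were marked. Of the iGPA-only genes, 43.7% (42.5 to 44.9) had an Atoh1 peak in iG+A and 42.8% (41.5 to 44) in iP+A. These genes were only partly the same: 21.8% had one in both lines, 21.9% in iG+A only, 21% in iP+A only and 35.3% in neither. Of the iAtoh1-only genes, 37.4% and 34.9% had one in iG+A and iP+A, and 45.5% in neither. Of the genes with peaks in both lines, 86.4% and 83.3% did, and of the genes with no peak in either list, 7.68% and 5.72%. A longer territory raises such a share for any list, and the territories of the classes differed as given above.

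Pou4f3 peaks of iGPA were present at 47.5% of the iGPA-only genes (46.3 to 48.7), 55.1% of the genes with peaks in both lines, 29.4% of the iAtoh1-only genes (27 to 31.9) and 15.4% of the genes with no Atoh1 peak. In iPou4f3 EBs, which carried no Atoh1 or Gfi1 transgene, the shares were 53.4%, 63.1%, 38.8% and 20.2%. Of the iGPA-only genes with a Pou4f3 peak in iGPA, 2460 also had one in iPou4f3 and 609 did not. At the level of sites, 18.4% (17.6 to 19.2) of the iGPA Atoh1 peaks at iGPA-only genes overlapped a Pou4f3 peak of iGPA, as did 17.4% (16.7 to 18.2) of the unshared iGPA peaks at genes with an iAtoh1 peak and 9.51% (8.88 to 10.2) of the shared ones. Thus new iGPA sites coincided with Pou4f3 at similar shares whether or not the gene had an iAtoh1 peak. Gfi1 peaks of iGPA, from a single library, were present at 9.87% of the iGPA-only genes, 20.5% of the genes with peaks in both lines, 5.93% of the iAtoh1-only genes and 2.53% of the genes with no peak.

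**Figure D3:**
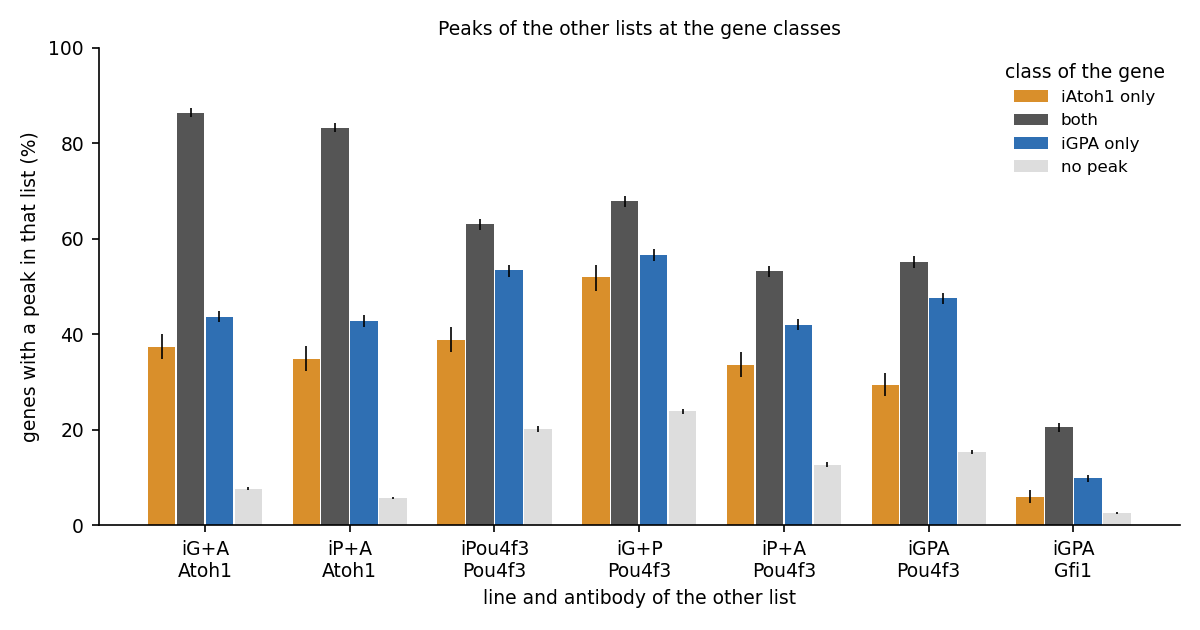
Bars give the share (%) of genes of each class (colours) with a peak in each of the other 7 lists, named by line and antibody, and error bars are exact 95% intervals. Genes with peaks in both lines (dark grey) have the highest share in every list, for example 86.4% in iG+A, and iGPA-only genes (blue) exceed iAtoh1-only genes (orange) in each, for example 47.5% against 29.4% for Pou4f3 in iGPA.

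Gene lists were then read by class. They were drawn up by function and held 452 genes, of which 451 were found in the annotation. Their shares are to be set against those of all protein-coding genes given above, and the median territory of every list was longer than that of all protein-coding genes (34.2 kb). Counting all protein-coding genes, the iGPA list held 1.8 times as many peaks as the iAtoh1 list. At equal list length all protein-coding genes had 11041 iAtoh1 and 11750 iGPA peaks, and 301 of them had a gain of at least 3. The equal-length values of single lists below are to be set against these.

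**Figure D4:**
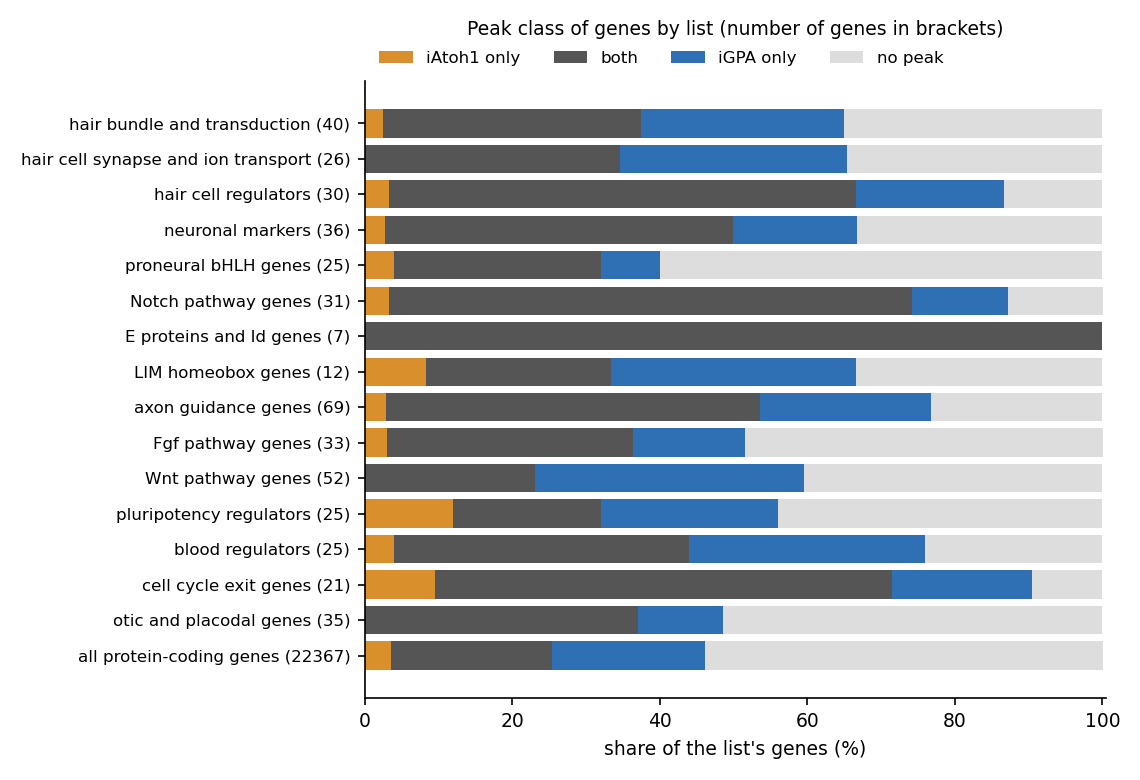
Stacked bars give the share (%) of each list's genes in the 4 classes, with the number of annotated genes in brackets and all protein-coding genes at the bottom. The 7 E protein and Id genes are all in the class with peaks in both lines, while 53.9% of all protein-coding genes have no peak.

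Among 40 genes of the hair bundle and mechanotransduction, 14 had peaks in both lines, 11 in iGPA only (27.5%), 1 in iAtoh1 only and 14 in neither. Cdh23, the tip link cadherin, had 2, 2, 4 and 8 peaks in the lists of iAtoh1, iG+A, iP+A and iGPA, the order used from here on. Myo7a, an unconventional myosin of the bundle, had none in the first 3 lists and 5 in iGPA, and no Pou4f3 peak in iPou4f3 or iGPA. Atp2b2, the calcium pump of stereocilia, had 2, 1, 2 and 5, and Pdzd7, a scaffold of the ankle links, 0, 1, 1 and 2. Whrn, another scaffold, had 4 peaks in iAtoh1 and 3 in iGPA. Lhfpl5, a subunit of the transduction channel complex, had 2 in iAtoh1 and none in the other lists. In all, these genes had 26 iAtoh1 and 56 iGPA peaks, and 38 iGPA peaks at equal list length.

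Of 26 genes of the HC synapse and ion transport, 9 had peaks in both lines, 8 in iGPA only and none in iAtoh1 only. Rimbp2, a presynaptic scaffold, had 1, 0, 1 and 7 peaks. Ctbp2, whose product RIBEYE forms the synaptic ribbon, had 2, 4, 2 and 7. The potassium channel gene Kcnma1 had 0, 1, 1 and 3. Bsn, the active zone protein bassoon, had 4 peaks in iAtoh1 and 2 in iGPA, and the calcium channel gene Cacna1d 2 and 1.

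Of 30 regulators of HC development, 19 (63.3%) had peaks in both lines and 6 in iGPA only. Pou4f1, a relative of Pou4f3, had 1, 1, 5 and 5 peaks, and 8 Pou4f3 peaks in iGPA. Ikzf2, a factor of outer HCs, had 1, 3, 2 and 4, and Nhlh1, a bHLH factor, 3, 4, 3 and 6. The induced factors themselves had few peaks: Atoh1 had 3 in iAtoh1 and 4 in iGPA, Gfi1 none and 2, and Pou4f3 1 and 2, all in a dense window. Sox2, a factor of prosensory cells, had 1 peak in iAtoh1 and none in the other Atoh1 lists. Among the study's markers not named above, Myo6 had 2 and 3 peaks in iAtoh1 and iGPA, Barhl2 1 and 3, Tubb3 2 and 2 and Espn 0 and 1, whereas Otof and Dcx had no Atoh1 peak in any list.

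Among 36 neuronal markers, 17 had peaks in both lines and 6 in iGPA only, and 7 (19.4%) had a gain of at least 3. At equal list length 4 of the 36 had such a gain. Elavl4, an RNA-binding protein of neurons, had 0, 0, 6 and 8 Atoh1 peaks, and it had 8 Pou4f3 peaks in both iPou4f3 and iGPA. Rbfox3, which encodes the NeuN antigen, had 6, 3, 5 and 10 Atoh1 peaks in the 4 lists. Myt1, a neuronal zinc finger factor, had 0, 1, 2 and 4, and Map2, a dendritic microtubule protein, 0, 0, 2 and 3. Prph and St18 each had 1 peak fewer in iGPA.

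Of 25 proneural and related bHLH genes, 15 (60%) had no peak, near the 53.9% of all protein-coding genes, and 7 had peaks in both lines. Olig3 had 1, 4, 0 and 7 peaks. Neurog2 had 0, 0, 1 and 4, and Atoh8 had 7, 8, 6 and 10. All 7 genes of the E proteins and Id proteins, the partners of Atoh1 and the inhibitors that titrate these partners, had peaks in both lines, and 4 of them had a gain of at least 3. Id2 had 2, 9, 11 and 10 peaks. Id3 had 2, 4, 6 and 7 within a territory of 18.2 kb, Id1 had 4, 4, 5 and 7, and the E protein gene Tcf4 had 1, 4, 2 and 4. At equal list length 1 of the 7 kept a gain of at least 3.

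Notch pathway genes mostly had peaks in both lines, 22 of 31 (71%), with 4 in iGPA only. Besides Maml3, the ligand gene Dll1 had 2, 3, 2 and 5 peaks, and Lfng, a glycosyltransferase that modifies Notch receptors, 2, 5, 2 and 5. Mib1, the ubiquitin ligase of Notch ligands, had 0, 0, 2 and 4. Dll3 had 2 peaks in iAtoh1 and 1 in iGPA, and the receptor gene Notch1 6 and 5.

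Of the 15 lists the Wnt pathway had the highest share in the iGPA-only class, 19 of 52 genes (36.5%). LIM homeobox genes (33.3%) and blood regulators (32%) came close. The Wnt list had 12 genes with peaks in both lines and none in iAtoh1 only, and a median territory of 78.2 kb. Its genes had 21 iAtoh1 and 75 iGPA peaks in all, a ratio of 3.57, and 21 and 50 at equal list length. Axin2, a negative feedback regulator of the pathway, had 0, 2, 3 and 7 peaks. The R-spondin receptor gene Lgr6 had 0, 1, 3 and 5, the receptor gene Fzd7 2, 2, 3 and 6, and the ligand gene Wnt10a 3, 4, 3 and 7. Of 33 Fgf pathway genes, 11 had peaks in both lines and 5 in iGPA only, and none had a gain of at least 3. The ligand genes Fgf5, Fgf8 and Fgf9 each had no iAtoh1 peak and 2 iGPA peaks.

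Of 69 axon guidance genes, 35 had peaks in both lines and 16 in iGPA only, and 11 (15.9%) had a gain of at least 3. At equal list length 6 of the 69 had such a gain. Besides Slit1, Plxna2, a semaphorin co-receptor, had 2, 3, 10 and 11 peaks, the receptor gene Ephb2 2, 3, 6 and 7, and the ligand gene Slit3 1, 2, 3 and 6. Plxna2 and Ephb2 had counts in iP+A close to those in iGPA. Sema5b was the single listed gene with a loss of at least 3, with 10 peaks in iAtoh1 and 5 in iGPA, and 13 of these 15 lay in dense windows. Among 12 LIM homeobox genes, 3 had peaks in both lines and 4 in iGPA only. Lmx1b had 1, 3, 3 and 4 peaks, Lhx3, a HC marker, 0, 0, 1 and 2, and Lhx2 had 1 in iAtoh1 and none in iGPA.

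The remaining lists concern other lineages and states. Of 25 blood regulators, 10 had peaks in both lines and 8 in iGPA only, and 5 had a gain of at least 3. At equal list length 2 of the 25 had such a gain. Besides Cbfa2t3, Zfpm1, the Gata1 cofactor FOG1, had 2, 8, 3 and 10 peaks, and Runx1 had 3, 6, 5 and 8. Of 25 pluripotency regulators, 5 had peaks in both lines, 6 in iGPA only and 3 (12%) in iAtoh1 only. None had a gain of at least 3, and the list had 17 iAtoh1 and 22 iGPA peaks, a ratio of 1.29, and 12 iGPA peaks at equal list length. Esrrb had 4 peaks in iAtoh1 and 2 in iGPA, and Fbxo15 5 and 3. Of 21 genes of cell cycle exit, 13 (61.9%) had peaks in both lines, and the list had 45 iAtoh1 and 53 iGPA peaks, a ratio of 1.18, and 37 iGPA peaks at equal list length. Btg2, an antiproliferative gene, had 7 peaks in iAtoh1 and 9 in iGPA. Of 35 otic and placodal genes, 13 had peaks in both lines and 4 in iGPA only, and Eya2 had 3, 5, 4 and 7.

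Genes whose symbols share the letters before the first digit were grouped into 154 families of at least 15 protein-coding genes, and the families with the highest share in each class were taken. Over all protein-coding genes the shares were 20.8% with iGPA peaks only, 21.8% with both, 3.54% with iAtoh1 peaks only and 53.9% with none. The share of iGPA-only genes was highest in the Scn (8 of 15, mostly sodium channel genes), Snx (16 of 31, sorting nexins), Abhd (8 of 16, hydrolase fold proteins), Mrpl (22 of 47, mitochondrial ribosomal proteins) and Map (14 of 31) families. The share with peaks in both lines was highest in the Sema (12 of 20, semaphorins), Cdc (17 of 34), Dusp (12 of 25, dual-specificity phosphatases), Cdh (11 of 23, cadherins) and Arhgap (15 of 32) families. The share of iAtoh1-only genes was highest in the Mup (7 of 21, major urinary proteins), Adamts (4 of 19), Cdh (4 of 23), Mfsd (2 of 15) and Cdk (3 of 26) families. The Mup genes lie in a multi-copy cluster, and 5 of them had an iAtoh1 peak in a dense window. No peak in either list was found at any gene of the Rhox (30), Pcdhb (21) and Lce (18) families, and at most Defb (39 of 41) and Olfr genes (1054 of 1113, olfactory receptors). These families had median territories of 10.5 to 18.8 kb. Those of the families named before them ran from 13.5 kb (Mrpl) to 271 kb (Cdh), against 34.2 kb for all protein-coding genes. Families were taken as the extremes of many, with small counts, and the shares are descriptions.

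The strongest peaks showed which genes carried the extremes of each class. In the class with peaks in both lines the highest fold enrichment in iGPA was at Dnahc2, an axonemal dynein gene (72.1, and 43.9 in iAtoh1), Sh3rf3 (70.4 and 30.2) and 6720456H20Rik (68.9 and 34). The bases shown above for Dnahc2 are a tandem repeat that holds 3 CAGCTG, and how reads were placed there was not tested. Among iGPA-only genes the highest fold enrichment was at the potassium channel gene Kcnk16 (23.3), the endocytic gene Fcho1 (20.3) and the calcium channel gene Cacna1e (18.7). Each of these had a Pou4f3 peak of iGPA on at least 1 of its Atoh1 peaks. Among iAtoh1-only genes the highest values were lower, at Mfsd7c (11.1), Adamts19 (6.23) and Dclk2 (6.05). With all called peaks the difference between the lists was 0 at Mfsd7c and Dclk2, so iGPA had a called peak there that was not kept. Mfsd7c also had 1 Atoh1 peak in iG+A and 1 in iP+A, Dclk2 had 1 in iG+A and Adamts19 had 1 in iP+A.

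The X chromosome departed from the autosomes. Outside the dense windows, 182 iAtoh1 and 198 iGPA peaks lay on the X chromosome, a ratio of 1.09, whereas the ratio was 2.13 over all chromosomes and 1.76 to 2.4 on single autosomes. The X chromosome held 1.68% (1.44 to 1.94) of the iAtoh1 peaks outside the dense windows, 1.16% (0.999 to 1.33) in iG+A, 1.18% (1.01 to 1.36) in iP+A and 0.857% (0.742 to 0.984) in iGPA. Of 2599 genes on it, 64 (2.46%) had peaks in both lines, 94 (3.62%) in iGPA only and 52 (2%) in iAtoh1 only. The shares of the autosomal genes were 18.4%, 18.4% and 3.73%. The number of X copies in the cells was not examined, and the cause was not tested.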

How the data were processed

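The data are ChIP-seq peak lists from doxycycline-treated EBs. According to the authors' methods, reads were trimmed with Trimmomatic, aligned to mm9 with Bowtie 2, freed of PCR duplicates (Picard), of poorly mapped reads (SAMtools) and of blacklisted regions (bedtools), and peaks were called with MACS2 on merged replicates against merged input. Versions are not given in the sources used here. The deposited peak files give a fold enrichment over input (a ratio) and −log10 p-values and q-values per peak, and the deposited summit files hold the peaks the authors kept (15568 of 24119 called in iAtoh1 and 26231 of 31697 in iGPA) with a score, whose definition is not stated and which was not used. Strict mapping filters remove reads that fit several places, which can affect multi-copy regions.

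Each kept summit was assigned to the nearest of 95458 transcript starts of GENCODE on NCBIM37, the assembly of mm9. Equidistant starts of different genes concerned 0.405% of the iAtoh1 and 0.179% of the iGPA summits. A shared site had 300 bp windows overlapping by at least 1 bp. Older gene symbols were matched through RefSeq (GRCm38.p6 names only). The genes and lists were chosen with earlier results of these data known. Genes named in the text are the 12 protein-coding genes with the largest gain and the 6 with the largest loss, the 3 with the strongest peak in each class, the up to 4 largest gains and up to 2 largest losses of each list, and the study's marker genes. A gene that this rule also names is not reported here. The named families are the 5 with the highest share in each class. Hexamers were searched on both strands of 251 bases around each summit. Sequences shown were chosen among named genes. The assignment was tested on simulated summits. Python 3.11.15, pandas 2.3.3, SciPy 1.17.1 and pysam 0.24.0 were used. Alternatives were protein-coding starts, all called peaks, a minimum −log10 p of 10, equal list lengths, joined sites, distance limits of 100 kb and 5 kb and, added after seeing the data, leaving out dense windows.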

Additional observations from a re-analysis of the deposited data

Results flagged for a closer look

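The peaks that the authors called but did not keep were outside the counts above. Of the 6462 iGPA-only genes, 486 (7.52%, interval 6.89 to 8.19) had such a called iAtoh1 peak, against 3.12% (2.9 to 3.35) of the genes with no kept peak in either list. Of the 1348 iAtoh1-only genes, 167 (12.4%, interval 10.7 to 14.3) had a called iGPA peak that was not kept, against 2.65% of the genes with no kept peak. These values were flagged because they come from peaks that the comparison left aside. Genes with no peak had shorter territories, a median of 23.6 kb against 45.5 kb (iGPA only) and 47.8 kb (iAtoh1 only). A shorter territory lowers such a share.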

How the results depend on the processing

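No paired analysis was possible because each list was called on merged replicates, and for the same reason no replicate could be left out. Joining sites within 300 bp and limiting the distance to 100 kb left every count of genes by class within 1.5 times its value, and moved 0 and 3 of the 18 largest gains and losses by gene. Of these 18 values, all called peaks moved 4, a minimum −log10 p of 10 moved 13, equal list length 12 and the 5 kb limit all 18. Leaving out dense windows moved 6, which were the 6 losses, and together with equal list length it moved 17 and reversed 1. With protein-coding starts, iAtoh1-only genes numbered 858. With all called peaks, 539 genes lost at least 3 peaks. With a minimum −log10 p of 10, iAtoh1-only genes numbered 469, genes with peaks in both lines 2561, genes with a shared site 2321, gaining genes 414 and losing genes 125. Within 5 kb of a start these were 825, 3335, 2992, 250 and 105, with 5561 iGPA peaks at iGPA-only genes. At equal list length there were 2274 iAtoh1-only genes, 3853 iGPA-only genes with 4785 peaks, 376 gaining and 516 losing genes. Without dense windows, 89 genes lost at least 3 peaks. With both changes there were 2662 iAtoh1-only genes, 2700 iGPA-only genes with 3182 peaks, 157 gaining and 210 losing genes, and the gain at Fam92b turned into a loss (-3). The cause was not tested, except that shorter lists hold fewer peaks by construction. Leaving out dense windows, and the alternatives of the shares that follow, were chosen after seeing the data. The share of iGPA-only genes with a Pou4f3 peak in iGPA was 50.3% with protein-coding starts, 54.6% at equal list length and 60.3% with equal length and no dense windows (47.5% as reported), and the share with an Atoh1 peak in iG+A or iP+A was 68.7%, 75.9% and 81.1% (64.7%). Read depth per list, the number of independent clones and the strength of each antibody pull-down limit what a difference in peak number shows.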
